A study of Homo sapiens with 24 samples.

Results

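These results describe 41 genes whose products mark replication origins, fire them, copy DNA and protect the moving fork. They were chosen by symbol from a list of DNA replication genes, and every probe set whose only gene symbol in the platform annotation is one of the 41 was taken. The 41 genes are part of 19775 genes with a probe set on the array, and all 41 were among the 11380 tested. They have 70 probe sets, of which 67 lay above the filter on dim values.

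The cells are P3HR1, an established cell line from a Burkitt lymphoma, a B-cell tumour. They carried the pRTS1 vector, from which doxycycline induces either green fluorescent protein (GFP) together with the miR-28 precursor (miR-28 cells) or GFP alone (control cells). The 4 groups were miR-28 cells and control cells after 12 h of doxycycline and both kinds of cells after 24 h, with 6 arrays in each. Each kind of cell existed as 2 bulk populations, A and B, and each population was induced 3 times per time point. The doxycycline dose is 0.1 ug/ml in the treatment labels and 1 ug/ml in the source labels, in all 4 groups alike. All arrays are of induced cells, so what already set the populations apart without doxycycline and the effect of the precursor cannot be told apart.

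A cell licenses its replication origins in G1, when the origin recognition complex, CDC6 and CDT1 load the MCM helicase on DNA. At the start of S phase the kinase CDC7 with its partner DBF4, and TOPBP1, help to turn the loaded helicase into an active one that contains CDC45 and the GINS complex. DNA polymerase alpha and primase then lay down primers, polymerases epsilon and delta extend them on the clamp PCNA, and the pieces of the lagging strand are trimmed and joined. Many of these genes are transcribed as cells enter S phase, under control of E2F transcription factors, and a dividing lymphoma line expresses them at high levels. In bulk RNA, fewer cells in S phase and less of a transcript per cell cannot be told apart.

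The precursor gives a mature strand from each arm, miR-28-5p and miR-28-3p. The RefSeq tables (GRCh38.p14) place miR-28-3p on chr3:188688834-188688855, plus strand, and its sequence is shown because it is a product of the precursor that only miR-28 cells were given, with the seed (bases 2 to 8) in capitals.
hsa-miR-28-3p: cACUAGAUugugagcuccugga

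Promoter stretches of members are shown here because the members lower in miR-28 cells at 24 h included genes with and without an E2F-type match near the start of transcription, and so did the members that were not called. The RefSeq windows hold 250 bases before and 50 after each start, on GRCh38.p14, and 36 of the 41 members had at least 1 window. GINS4, POLD3, DNA2, RPA2 and RPA3 had none. The E2F-type motifs searched on both strands were TTTCCCGC, TTTCGCGC, TTTGCCGC and TTTGGCGC, and the CCAAT motif was searched beside them. Each stretch reads 5′ to 3′ on the strand of the gene, with the match in capitals. Of the stretches below, those of CDC7, TOPBP1, GINS1, GINS2, GINS3, POLE2 and PCNA come from members called lower at 24 h, and those of CDC6 and ORC3 come from members that were not called. The stretches are a selection that favours called members. Other members not called also had a match, and CDC7 had a further one, and these are not printed.
CDC7 (chr1:91501052-91501111, plus strand): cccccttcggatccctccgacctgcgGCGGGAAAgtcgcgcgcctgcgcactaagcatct
TOPBP1 (chr3:133661915-133661974, minus strand): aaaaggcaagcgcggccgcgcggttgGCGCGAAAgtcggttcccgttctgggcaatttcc
GINS1 (chr20:25407652-25407702, plus strand): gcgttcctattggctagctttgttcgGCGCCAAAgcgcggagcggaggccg
GINS2 (chr16:85688952-85689011, minus strand): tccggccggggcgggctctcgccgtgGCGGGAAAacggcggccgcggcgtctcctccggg
GINS3 (chr16:58392440-58392499, plus strand): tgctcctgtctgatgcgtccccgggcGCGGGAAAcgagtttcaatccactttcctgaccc
POLE2 (chr14:49688186-49688245, minus strand): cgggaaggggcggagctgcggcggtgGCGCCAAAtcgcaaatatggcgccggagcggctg
PCNA (chr20:5126648-5126707, minus strand): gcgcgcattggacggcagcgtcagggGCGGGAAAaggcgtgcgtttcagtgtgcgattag
CDC6 (chr17:40287860-40287908, plus strand): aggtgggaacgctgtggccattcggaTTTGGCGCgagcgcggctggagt
ORC3 (chr6:87590097-87590156, plus strand): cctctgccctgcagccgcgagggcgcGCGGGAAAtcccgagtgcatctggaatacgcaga
An E2F-type match stood in a window of 18 of the 36 members (50%), against 608 of 9285 tested genes with a window (6.55%). Among members called lower at 24 h it stood in 7 of 11 (63.6%), against 11 of 25 (44.0%) among members not called. The called members ORC1, PRIM1, RNASEH2A and TIMELESS had a window without a match. CCAAT stood in windows of 19 of 36 members (52.8%), against 4066 of 9285 tested genes (43.8%). Split the same way, CCAAT stood in 7 of 11 called members (63.6%), against 12 of 25 not called (48.0%). The median GC content per gene was 65.7% in the members' windows and 64.3% in those of the tested genes. A match is a description of the letters and was not tested as a binding site.

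Median intensity per array lay between 73.2 and 93.2, and no pair of arrays within a group held identical values. The 5 B-cell markers measured had a median intensity of 10054, and those of other cell types had medians of 35.7 (NK cell) to 63.6 (T cell). Of all these markers CD79B alone passed the test between miR-28 and control cells, by 0.24 (log2) at 24 h. For the ACTB control probes, whose 3' to 5' ratio rises as RNA degrades, the log2 ratio exceeded 1 on miR-28 population B induction 2 at 12 h (1.05) and on control population B induction 2 at 24 h (1.59). Leaving out both gave 16 called members at 24 h in place of the 12 described below, and 0 at 12 h. Of all genes 5.32% were then called at 24 h and 0.474% at 12 h, against 5.35% and 0.536% with all arrays.

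At 12 h no member differed between miR-28 and control cells at a limma adjusted p under 0.05, where 0.536% of all tested genes did (0.316% lower and 0.220% higher in miR-28 cells). Before adjustment 5 of the 41 members had p under 0.05, against 9.67% of all tested genes. The median log2 fold change of the members was -0.11, against 0.01 for all tested genes, and 30 members lay below 0. The lowest adjusted p belonged to CDC7, the kinase that fires licensed origins, at -0.24 ± 0.09 (log2 fold change ± SE, miR-28 over control, 6 against 6 arrays; adjusted p 0.346). The members' fold changes ran from -0.24 (CDC7) to 0.20 (RNASEH2A). Arrays of the groups overlapped for every member at 12 h. Over all tested genes the miR-28 arrays lay wholly below the control arrays for 0.422% and wholly above for 0.431%.

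At 24 h 12 of the 41 members (29.3%) were lower in miR-28 than in control cells and none was higher. Over all 11380 tested genes 5.35% were called, 2.75% as lower and 2.60% as higher. The called members came from 8 of the 11 roles and were 1.27-fold to 1.44-fold lower. They were ORC1, CDC7, TOPBP1, GINS1, GINS2, GINS3, PRIM1, POLD3, POLE2, PCNA, RNASEH2A and TIMELESS. The median of all 41 members was -0.31, against 0.02 for all tested genes, and 38 lay below 0. Before adjustment 27 members had p under 0.05, against 18.8% of all tested genes. Fold changes are on the scale of log2(intensity + 8), which understates the change of dim genes.

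**Figure D1:**
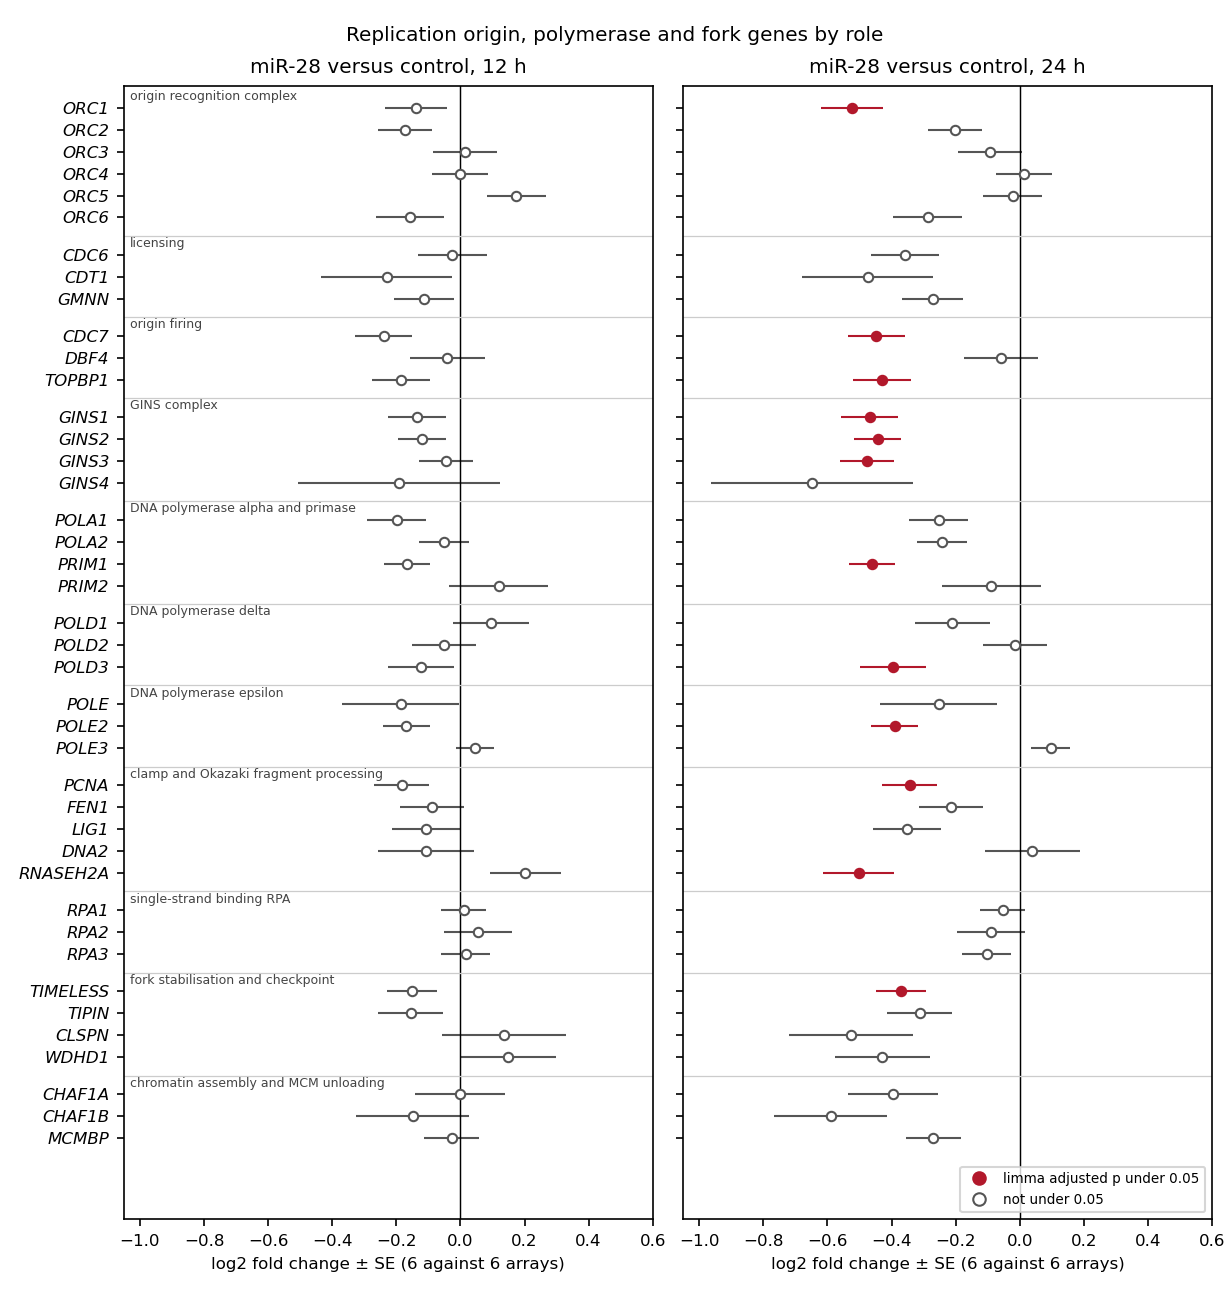
Log2 fold change of each of the 41 members in miR-28 over control cells at 12 h (left) and 24 h (right), grouped by role; points are limma estimates with bars of 1 SE, 6 against 6 arrays, and filled red points have an adjusted p under 0.05. No point is filled at 12 h and 12 are filled at 24 h, all below 0.

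Of the 6 subunits of the origin recognition complex, which marks origins on DNA, 1 passed the test. ORC1, the largest subunit and the one whose level cycles in human cells, had intensities of 1079, 1311 and 1454 (lowest, median and highest of 6 arrays) in miR-28 cells at 24 h, against 1555, 1868 and 2232 in control cells. The groups did not overlap, and ORC1 was lower in miR-28 than in control cells by 0.52 ± 0.10 (adjusted p 0.00195). Its fold change was the lowest among the called members. ORC2 to ORC6, the other subunits, were not called and ran from -0.29 ± 0.11 (ORC6) to 0.01 ± 0.09 (ORC4). ORC4, POLE3 and DNA2 were the 3 members above 0.

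The licensing factors CDC6, CDT1 and geminin (GMNN), the inhibitor of CDT1, were all below 0 and none passed the test. CDC6 had 1583, 1835 and 1932 in miR-28 cells at 24 h, against 2044, 2230.1 and 2679.9 in control cells. Its groups did not overlap, yet at -0.36 ± 0.11 its adjusted p was 0.0507, just above the threshold. It was called under 4 of the 14 other ways of processing the arrays and after leaving out any 1 of 5 single arrays. CDT1 was at -0.47 ± 0.20 and GMNN at -0.27 ± 0.09.

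Of the 3 origin-firing genes, CDC7 and TOPBP1 were lower in miR-28 cells and DBF4 did not pass. CDC7 had 1064, 1435 and 1476 in miR-28 cells at 24 h, against 1702, 1757 and 2209.8 in control cells. Its fold change was -0.45 ± 0.09 (adjusted p 0.0035). TOPBP1, a scaffold that brings GINS to the helicase and also activates the checkpoint kinase ATR, had 2706, 3014 and 3728 in miR-28 cells, against 3756, 4049 and 5159 in control cells. It was lower in miR-28 cells by 0.43 ± 0.09 (adjusted p 0.00569), and neither gene's groups overlapped. The highest miR-28 array of TOPBP1 nearly reached its lowest control array. DBF4, the activating subunit of CDC7, was at -0.06 ± 0.12 (adjusted p 0.847).

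The GINS complex, the 4-subunit part of the active helicase, had 3 subunits called. GINS1 had 3834, 4216 and 4862 in miR-28 cells at 24 h, against 5421, 5722 and 7039 in control cells. GINS2 had 3538, 4213 and 4382 in miR-28 cells, against 5122, 5565 and 6051 in control cells. GINS3 had 1236, 1532 and 1647 in miR-28 cells, against 1825, 2082 and 2324 in control cells. All 6 miR-28 arrays lay below all 6 control arrays for each of these subunits. The fold changes were -0.47 ± 0.09 for GINS1 (adjusted p 0.00254), -0.44 ± 0.07 for GINS2 (0.000902) and -0.48 ± 0.08 for GINS3 (0.00152). GINS4 had the lowest fold change of all members, -0.65 ± 0.32, with the largest SE, and was not called (adjusted p 0.27).

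PRIM1, the catalytic subunit of primase, had the smallest p of the members. Its intensities were 2269, 2466 and 2767 in miR-28 cells at 24 h, against 3184, 3455 and 3697 in control cells. The groups were apart and the fold change was -0.46 ± 0.07 (adjusted p 0.000403). The other genes of the polymerase alpha and primase complex were not called. The catalytic subunit POLA1 was at -0.25 ± 0.09, the accessory subunit POLA2 at -0.24 ± 0.08 and the large primase subunit PRIM2 at -0.09 ± 0.15.

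Polymerases delta and epsilon each had 1 called member, an accessory subunit in both. POLD3, of the lagging-strand polymerase delta, had 1188, 1366 and 1508 in miR-28 cells at 24 h, against 1557, 1669 and 2622 in control cells. Its groups did not overlap, and control population B induction 2 held its highest value. POLD3 was lower in miR-28 cells by 0.40 ± 0.10 (adjusted p 0.0231). Without miR-28 population B induction 1 or 3 it was lower by 0.37 and 0.36, with adjusted p of 0.0561 and 0.0628. The catalytic subunit POLD1 was at -0.21 ± 0.12 and the accessory subunit POLD2 at -0.01 ± 0.10.

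POLE2, the second subunit of the leading-strand polymerase epsilon, had 1517, 1783 and 2038 in miR-28 cells at 24 h, against 2040.4, 2356 and 2706 in control cells. The groups did not overlap but nearly met, and the fold change was -0.39 ± 0.07 (adjusted p 0.00238). The catalytic subunit gene POLE was at -0.25 ± 0.18. POLE3, a small histone-fold subunit that also belongs to a chromatin remodelling complex, was at 0.10 ± 0.06, the highest value of any member (adjusted p 0.42).

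PCNA, the sliding clamp, had 12216, 14211 and 15827 in miR-28 cells at 24 h, against 15739, 18302 and 19194 in control cells. One miR-28 array reached into the control range, and PCNA was lower in miR-28 cells by 0.34 ± 0.09 (adjusted p 0.0197). Without miR-28 population B induction 2 it was lower by 0.30, with an adjusted p of 0.0568. RNASEH2A, the catalytic subunit of the enzyme that removes RNA from DNA, had 3523, 3763 and 5215 in miR-28 cells, against 4908, 5617 and 7299.8 in control cells. It was lower in miR-28 cells by 0.50 ± 0.11 (adjusted p 0.00759), with 5 of 6 miR-28 arrays below the lowest control array. The nucleases FEN1 (-0.21 ± 0.10) and DNA2 (0.04 ± 0.15) and the ligase gene LIG1 (-0.35 ± 0.11, adjusted p 0.055) were not called.

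The 3 subunits of replication protein A, which coats single-stranded DNA, had a median of -0.09 at 24 h, the nearest to 0 of the 11 roles. RPA1 was at -0.05 ± 0.07, RPA2 at -0.09 ± 0.11 and RPA3 at -0.10 ± 0.08, each with overlapping arrays.

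Among the genes that stabilise stalled forks, TIMELESS was lower in miR-28 cells and its partner TIPIN did not pass. TIMELESS had 2232, 2554 and 3159 in miR-28 cells at 24 h, against 2989.5, 3318 and 3808 in control cells. One miR-28 array, of population A, lay inside the control range, and the fold change was -0.37 ± 0.08 (adjusted p 0.006). TIPIN was at -0.31 ± 0.10, the checkpoint mediator CLSPN at -0.53 ± 0.19 and WDHD1, which couples polymerase alpha to the helicase, at -0.43 ± 0.15.

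CHAF1A and CHAF1B, subunits of the factor that assembles histones behind the fork, and MCMBP, which binds MCM proteins, were not called. CHAF1B had 286, 466 and 655 in miR-28 cells at 24 h, against 484, 769 and 827 in control cells. At -0.59 ± 0.18 it lay further below 0 than any called member, but its arrays overlapped and its adjusted p was 0.0507. CHAF1A was at -0.40 ± 0.14 and MCMBP at -0.27 ± 0.09. Over the 29 members not called, 26 were below 0 and the SE ran from 0.060 to 0.32, against 0.072 to 0.11 in the called members.

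**Figure D2:**
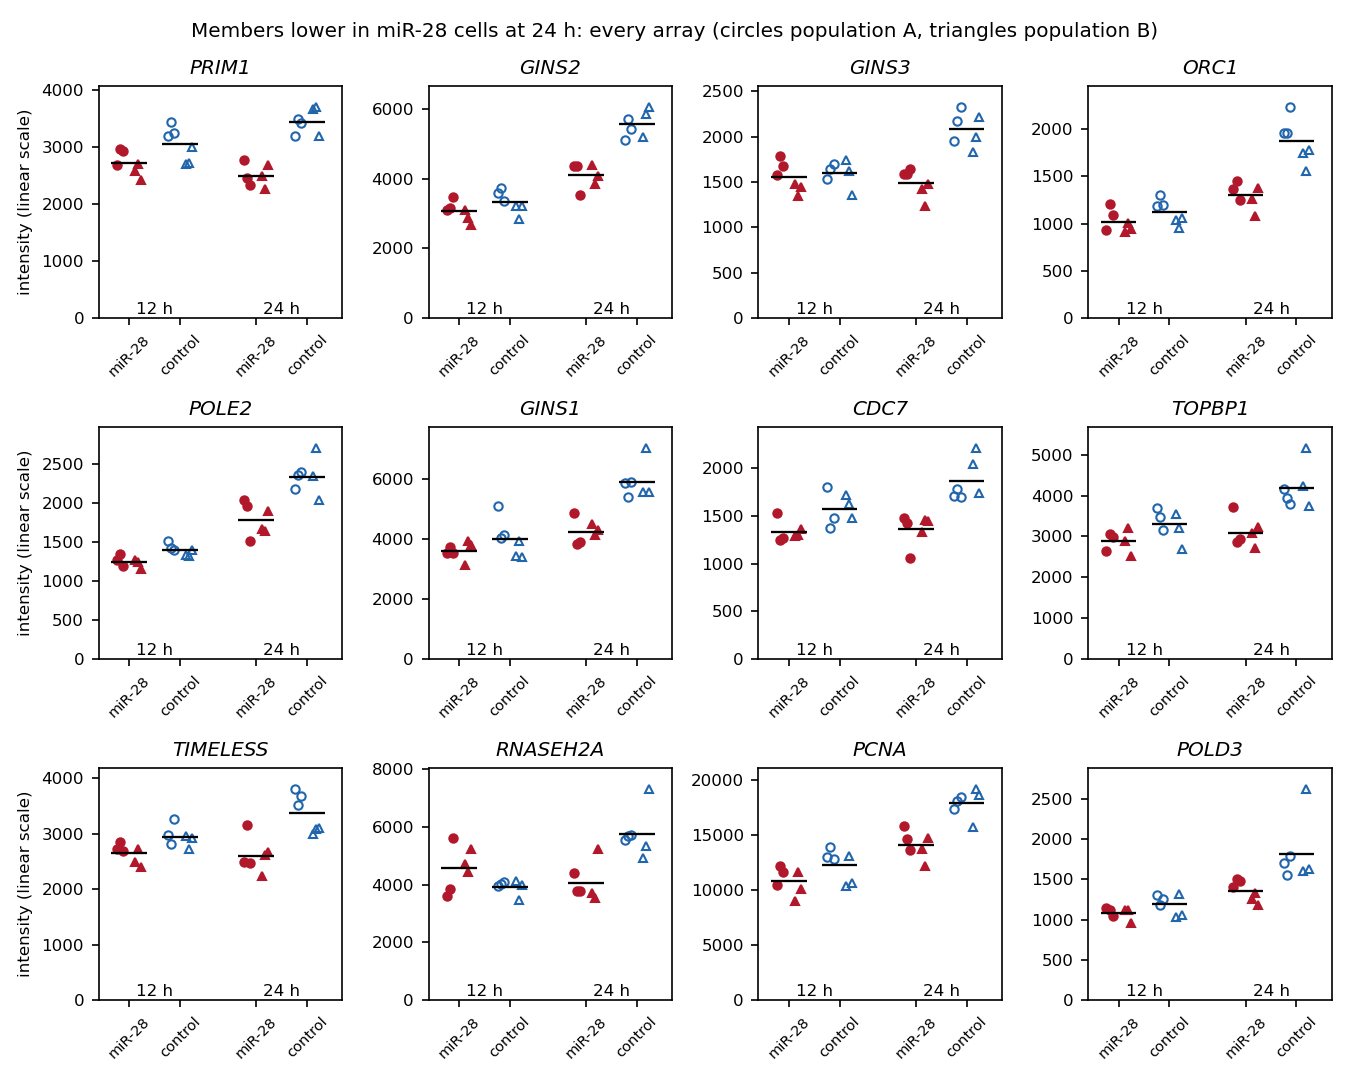
Intensity (linear scale from 0) of the 12 members called at 24 h on all 24 arrays, ordered by p at 24 h; filled red symbols are miR-28 cells, open blue symbols control cells, circles population A, triangles population B, and bars group means of 6 arrays. At 24 h the miR-28 and control arrays are apart for 9 of the 12 genes and overlap for PCNA, RNASEH2A and TIMELESS.

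Counted over all members, the miR-28 arrays lay wholly below the control arrays at 24 h for 10 of 41, the 9 called members just described and CDC6. Over all tested genes this held for 1.90%, and the reverse held for 1.60% and for no member. For all 12 called members both miR-28 population means lay below both control population means, and this held for 30 of the 41 members at 24 h, against 21.6% of all tested genes. Both miR-28 means lay above both control means for 1 member, against 26.2% of all genes. At 12 h they lay below for 11 members, against 16.7% of all genes, and above for 3, against 20.1%. The effect of miR-28 in population B minus that in population A passed the limma test for no member at either time, where it was called for 0.00879% of all genes at 12 h and 0.00% at 24 h, and 1 and 2 members had p under 0.05 before adjustment, against 6.37% and 6.20% of all genes. The letters are not known to pair miR-28 with control populations.

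Averaged over the 41 members, the log2 difference from the control mean of the same time lay between -0.34 and -0.20 on the miR-28 arrays at 24 h, and between -0.04 and 0.03 on the control arrays. The mean of the miR-28 arrays was -0.29 ± 0.06 (SD, n = 6). At 12 h the miR-28 arrays lay between -0.15 and 0.01 and the control arrays between -0.08 and 0.09. Within that time the 3 miR-28 arrays of population B, at -0.15 to -0.11, were the lowest, while those of population A, at -0.03 to 0.01, lay inside the control range. The control populations were also apart at 12 h, with 0.019 to 0.093 in A and -0.079 to 0.003 in B. At 24 h the miR-28 populations overlapped in this mean, with -0.34 to -0.23 in B and -0.33 to -0.20 in A. The average is a description of chosen genes and was not tested.

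**Figure D3:**
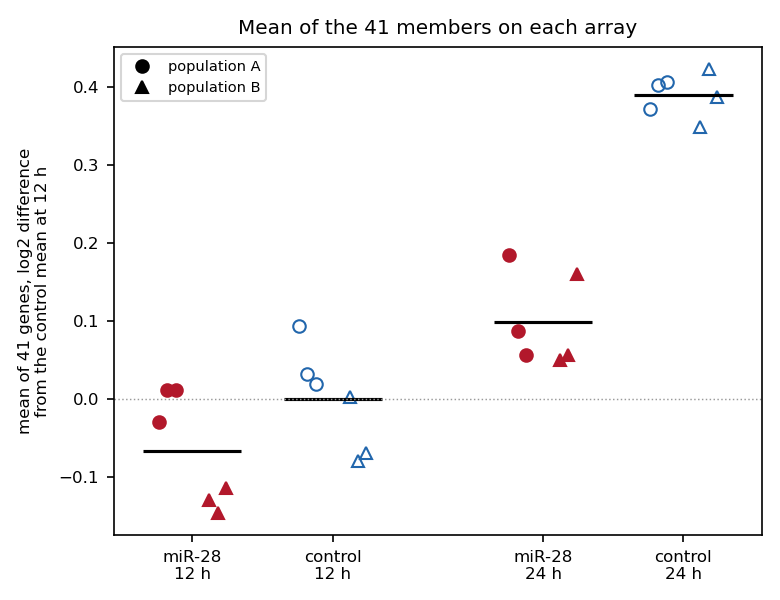
Mean over the 41 members of the log2 difference from the control mean at 12 h, on each of 24 arrays; filled red symbols are miR-28 cells, open blue symbols control cells, circles population A, triangles population B, and bars group means. At 24 h the miR-28 arrays lie between 0.05 and 0.19 and the control arrays between 0.35 and 0.42.

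Several probe sets for a gene gave a second reading for 17 members. Of these genes' 26 further probe sets above the filter, 23 were below 0 at 24 h. In a fit over all 27306 probe sets, 14 of the 67 members' probe sets were called, all lower, where 2.75% of probe sets were called in either direction and 1.48% were lower. Of the 26 further ones 2 were called. The second ORC2 probe set was at -0.47 ± 0.12 (adjusted p 0.0260), while the brighter one used for the gene was at -0.20. A dim second probe set of TIMELESS was at -1.73 ± 0.36 (adjusted p 0.00916), against -0.37 for the one used. Of the 12 called members 8 rest on 1 probe set. The 5 further probe sets of GINS2, GINS3, POLD3 and TIMELESS were all below 0. All but that of GINS3 were dim, with mean intensities of 108 to 154. Those of GINS2 were at -0.29 ± 0.27 and -0.01 ± 0.39 and that of POLD3 at -0.38 ± 0.50, so their sign says little. That of GINS3, at a mean intensity of 1160, was at -0.34 ± 0.11 and not called (limma adjusted p 0.103).

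**Figure D4:**
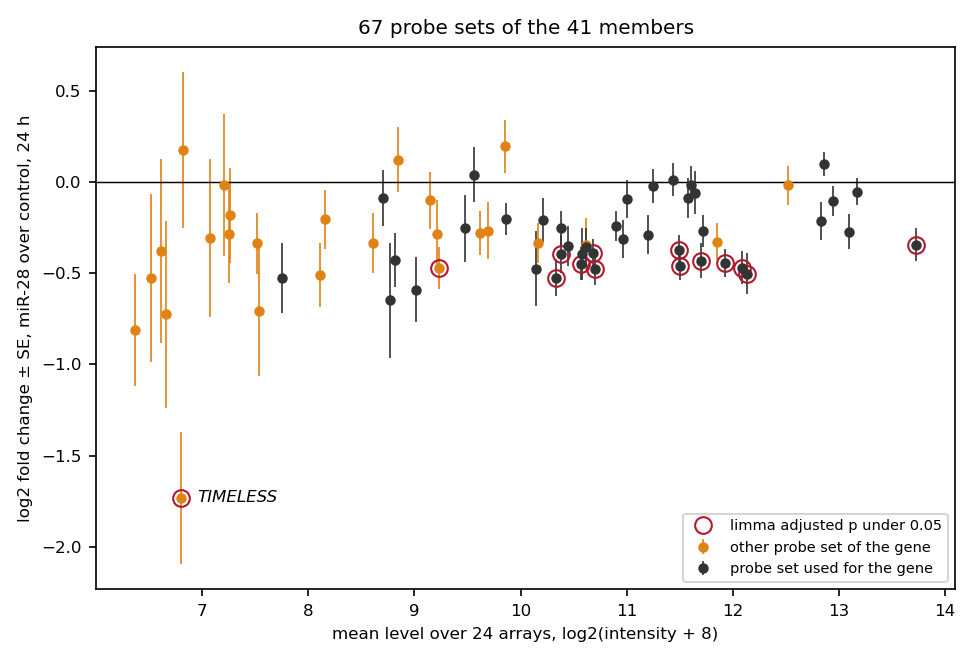
Log2 fold change at 24 h (miR-28 over control, ± SE, 6 against 6 arrays) of the 67 probe sets of the members against their mean level over 24 arrays; dark points are the probe set used for a gene, orange points its other probe sets, and red rings mark a limma adjusted p under 0.05 in the fit over probe sets. Ringed points are all below 0, and the lowest is the dim second TIMELESS probe set at -1.73.

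With time, the members were mostly higher at 24 h than at 12 h, with 34 of 41 above 0 in miR-28 cells and 40 of 41 in control cells. In miR-28 cells 8 members were higher at 24 h and none was lower (RPA3 was called lower under some alternatives), where 4.66% of all genes were called and 2.65% were higher. In control cells 21 members were higher and none was lower, where 6.14% of all genes were called, 3.60% higher and 2.54% lower. The median change over the 41 members was 0.16 in miR-28 cells and 0.38 in control cells, against medians near 0 for all tested genes. The 8 in miR-28 cells were ORC1, CDC6, GMNN, GINS2, POLD2, POLE2, PCNA and FEN1, and each of them was also among the 21 in control cells. The other 13 in control cells were TOPBP1, GINS1, GINS3, POLA1, POLA2, POLD1, POLD3, LIG1, RNASEH2A, TIPIN, CLSPN, WDHD1 and CHAF1A.

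CDC6, the loader of the MCM helicase, had the largest change with time in both kinds of cells. In miR-28 cells its intensities were 1583, 1835 and 1932 at 24 h, against 967, 1162 and 1558 at 12 h. In control cells they were 2044, 2230.1 and 2679.9 at 24 h, against 1012, 1273 and 1301 at 12 h. The 24 h arrays lay above the 12 h arrays in both, with log2 changes of 0.55 ± 0.11 in miR-28 cells (adjusted p 0.00559) and 0.88 ± 0.11 in control cells (adjusted p 6.72e-05).

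POLE2 changed by 0.51 ± 0.08 in miR-28 cells and 0.73 ± 0.08 in control cells. GINS2 changed by 0.42 ± 0.08 in miR-28 cells and 0.74 ± 0.08 in control cells. ORC1 changed by 0.35 ± 0.10 in miR-28 cells (adjusted p 0.0448) and 0.73 ± 0.10 in control cells. The ORC1 call in miR-28 cells was the least stable, since it was lost on leaving out any 1 of 16 of the 24 arrays. POLD2 changed by 0.54 ± 0.10 in miR-28 cells and 0.51 ± 0.10 in control cells. PRIM1, GINS3 and RNASEH2A, called lower in miR-28 than in control cells at 24 h, were at -0.12 ± 0.07, -0.05 ± 0.09 and -0.17 ± 0.11 with time in miR-28 cells, where none of the 3 passed. The second GINS3 probe set lay on the other side of 0 there, at 0.27 ± 0.11 (limma adjusted p 0.243 in the fit over probe sets). The control arrays at 24 h enter both the genotype comparison at that time and the change with time in control cells.

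**Figure D5:**
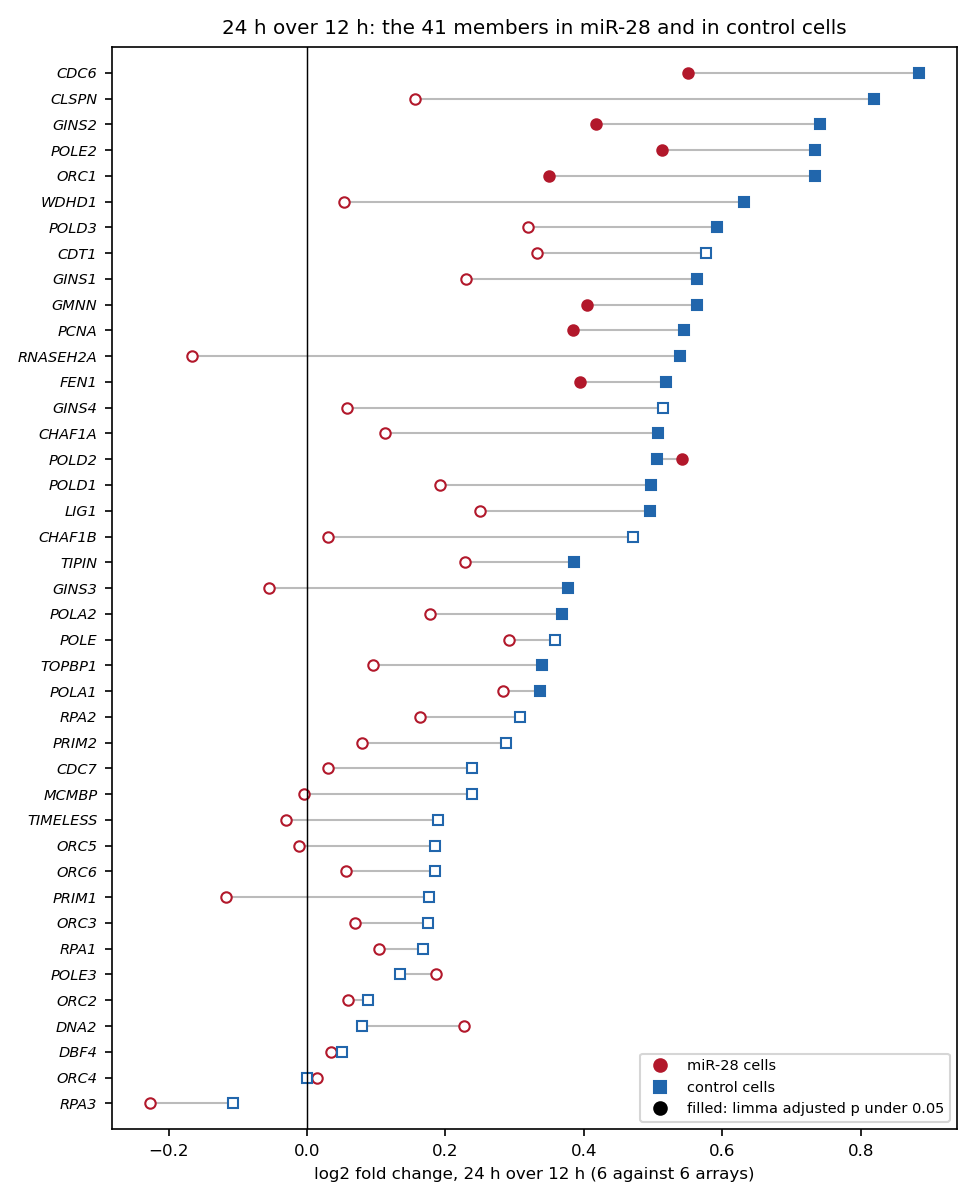
Log2 fold change (24 h over 12 h) of each of the 41 members in miR-28 cells (red circles) and control cells (blue squares), ordered by the change in control cells; filled symbols have a limma adjusted p under 0.05 (6 against 6 arrays). In 37 of the 41 members the miR-28 value lies left of the control value, a difference that passed the test for none of them.

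The miR-28 effect at 24 h minus that at 12 h, which equals the difference of the changes with time between miR-28 and control cells, passed the limma test for no member and for no gene (0.00%). Before adjustment 9 members had p under 0.05, against 787 of all genes (6.92%). The median was -0.21 over the members, against 0.01 over all genes, and 37 members lay below 0. The lowest adjusted p belonged to RNASEH2A, at -0.71 ± 0.16 (adjusted p 0.291). In miR-28 cells its intensities were 3523, 3763 and 5215 at 24 h, against 3604, 4578 and 5609.8 at 12 h, and in control cells 4908, 5617 and 7299.8 at 24 h, against 3449.7, 4003 and 4109 at 12 h. The arrays of miR-28 cells at the 2 times overlapped, and those of control cells did not.

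Other replication genes, in lists that do not hold the members, were described at 24 h beside the same background. Of 41 such genes tested, 14 were lower in miR-28 cells and 1 was higher, with a median of -0.29. Over all tested genes 2.75% were lower and 2.60% higher at 24 h, with a median of 0.02, and 0.536% were called at 12 h. Of the 8 genes of the MCM helicase and CDC45, 3 were lower, and the smallest p was that of MCM10, at -0.55 ± 0.10. Of the 9 clamp loader genes, which place PCNA on DNA, 4 were lower, and the smallest p was that of RFC3, at -0.92 ± 0.10, which was also called at 12 h. Nucleotide supply had 3 of 5 lower, and RRM2, a subunit of ribonucleotide reductase, had the smallest p, at -0.37 ± 0.07, and its partner subunit RRM1 was at -0.47 ± 0.11.

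Of the 8 E2F genes 2 were lower, and the smaller p was that of E2F2, at -0.77 ± 0.10, which was also called at 12 h. E2F1 was at -0.42 ± 0.21 and not called. Of 11 further polymerase, firing and fork genes, 2 were lower. DONSON, a fork protein, had the smaller p, at -0.40 ± 0.10, and RNASEH2B, a subunit of the same enzyme as RNASEH2A, was at -0.48 ± 0.13. The single one higher in miR-28 cells was POLE4, the histone-fold partner of POLE3, at 0.42 ± 0.12 (adjusted p 0.0353). POLE4 was named after its value was seen.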

How the data were processed

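Expression was measured on 24 one-colour Affymetrix arrays of P3HR1 cells, with 6 ug of RNA labelled per array, per the labels' protocols. The authors deposited an intensity per probe set, on a linear scale, which MAS5 made per the submitters' processing notes. Its version and settings are not given in the sources used here. Columns shared a 2% trimmed mean of 500.07 to 500.08, and this scaling was kept.

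The 62 control probe sets were left out, and probe sets with 1 gene symbol in the platform annotation (41091 of 54675) were used, with symbols updated through RefSeq. A gene was its probe set with the highest mean of log2(intensity + 8), and genes with a mean above 6.11, the median of all probe sets, were tested. A model with 1 mean per genotype and time was fitted to all 24 arrays in R 4.3.3 by limma 3.58.1 (statmod 1.5.0). The bulk population entered as a random block (consensus correlation -0.023). As this correlation was below 0, the block narrowed the SE of miR-28 versus control and did not widen it for a spread between populations. Without the block 12 members and 4.67% of all genes were called at 24 h, against 12 and 5.35% with it. Moderated statistics were tested from both sides, Benjamini-Hochberg adjusted over 11380 genes, and called at 0.05. The difference between populations came from a fit with 8 means and no block, and probe sets were fitted over all 27306. The fit was tested on simulated data with independent noise on each array. Those data held no spread between populations, so that test says nothing about how populations affect the p-values. Plots used Python 3.11.15 and matplotlib 3.10.9.

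Replicates of a group are inductions of 2 bulk populations, so p-values measure the spread between arrays. Equal replicate numbers do not pair the arrays: the correlation of same-numbered deviations lay between -0.094 and 0.118 and exceeded 0.1 in 1 of 36 pairs. Arrays carry no read depth, so precision is limited by their number. The members, the lists and the tests were chosen with earlier results of these data known. Members called at 24 h are given on all arrays. Of those not called, the 3 with the largest statistic at 24 h and all above 0 are named, and of each other list the gene with the smallest p. Further members, E2F1, RRM1, RNASEH2B and POLE4 were named for their role or after their values were seen. Alternatives varied the pseudocount, the filter, the scaling, the block, the probe-set choice, the populations and times fitted, and each array in turn. Leaving out both arrays with a high 3' to 5' ratio was added after the data were seen. Some marker and list genes and one mature strand's sequence are not reported here.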

Additional observations from a re-analysis of the deposited data

Results flagged for a closer look

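In groups of 6 arrays a value was set apart when its gap to the nearest other array was a larger share of the group's whole range than Dixon's critical value for 6 values. This held in 14 of 176 groups examined (7.95%), where chance alone gives about 1 in 20.

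Of these, 4 came from control population B induction 2 at 24 h, the array with the ACTB 3' to 5' log2 ratio of 1.59 (others 0.44 to 0.87). On it GINS1 was 7039 (others 5421 to 5893), POLD3 was 2622 (others 1557 to 1786) and RPA2 was 5137 (others 2972 to 3328). Without this array 16 members were called at 24 h, GINS1 and POLD3 among them, and the part of RNA quality in these values was not tested.

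Among other control arrays at 24 h, ORC2 was 822 on population A induction 1 (others 992 to 1100) and RPA1 was 11127 on population A induction 3 (others 9374 to 9685). Among miR-28 arrays at 24 h, ORC5 was 2129.6 on population B induction 2 (others 2480.2 to 2607) and CDT1 was 799 on population A induction 2 (others 1108 to 1304). On population A induction 3 CDC7 was 1064 (others 1328 to 1476) and CHAF1A was 900.3 (others 1385 to 1715). At 12 h POLE3 was 6086 on miR-28 population B induction 1 (others 7163 to 7610.2). On control population B induction 2 at 12 h CDC6 was 1012 (others 1249.5 to 1301) and RNASEH2A was 3449.7 (others 3949.6 to 4109), and on control population A induction 1 RPA2 was 3499 (others 2502 to 2766).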

How the results depend on the processing

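No member was called at 12 h, in the difference between times or in that between populations under any alternative run. At 24 h, in place of 12 calls, 19 were made with a filter at the 75th percentile, which called 11.4% of all genes against 5.35% in the fit reported. There were 15 with quantile normalization or each time fitted alone (5.53% and 5.47% of all genes) and 9 with arrays centred on their median (4.78%). The 0 calls with population means as the unit, population A alone and population B alone came with 0, 48 and 38 calls among all genes, so they say nothing about the members. The 12 members called in the full fit were all below 0 there, between -0.52 and -0.34 with population means, -0.59 and -0.20 in A alone, and -0.59 and -0.29 in B alone. Leaving out single arrays gave 11 to 16. For the change with time in miR-28 cells the 8 calls became 4 with no filter on low values (1.05% of all genes), 0 with population means, A alone or B alone (0, 8 and 2 of all genes), and 6 to 9 without single arrays. For control cells the 21 calls became 0 with population means, 1 in A alone and 4 in B alone (0, 17 and 34 of all genes), and 17 to 21 without single arrays. With a replicate block the counts were 12 at 24 h (5.42% of all genes) and 0 at 12 h (0.536%). In the difference between times there were 0 (0% of all genes). With time there were 21 in control cells (7.1% of all genes, against 6.14% in the fit reported). In miR-28 cells there were 10 (5.55%, against 4.66%), 9 higher and 1 lower. The lower one was RPA3, at -0.23 (adjusted p 0.0417, against 0.109 in the fit reported), which was also called with quantile normalization (-0.26) and without miR-28 population A induction 1 at 12 h (-0.27).

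The 24 h calls of ORC1, CDC7, GINS1, GINS3, PRIM1, POLE2, RNASEH2A and TIMELESS held in all alternatives but the 3 on population means, A alone and B alone. Beside those 3, TOPBP1 was also lost with arrays centred on their median, and GINS2 with the mean of the gene's probe sets. POLD3 held in 29 and PCNA in 32 of 38. Of members not called, CDC6, POLA2, LIG1, WDHD1, CHAF1B and MCMBP were called at 24 h without at least 1 single array. With the mean of the gene's probe sets, ORC2 (-0.34, limma adjusted p 0.0243) and GINS4 (-0.42, limma adjusted p 0.0409) were called lower at 24 h. With time, leaving out 1 array ended the calls of FEN1 in miR-28 cells and of TOPBP1, POLA1 and TIPIN in control cells for 6 arrays each, and that of CHAF1A in control cells for 9. Leaving out both arrays with a high 3' to 5' ratio gave 16 calls at 24 h (5.32% of all genes). Centring moved the median of all genes at 24 h to 0.08 and turned 313 lower and 296 higher genes into 149 lower and 395 higher. With time in miR-28 cells it moved that median to 0.10 and turned 228 lower and 302 higher genes into 57 lower and 529 higher. With 3 arrays per population and time, calls within a population are limited by array number.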
